A study of Homo sapiens with 6 samples.

Results

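Core autophagy genes were followed in LNCaP cells, an androgen-responsive human prostate cancer line, during exposure to the androgen dihydrotestosterone (DHT). The genes were taken by symbol from the deposited table of RNA sequencing counts: ULK1, ULK2, ATG4B, ATG4D, ATG5, BECN1, TFEB, MAP1LC3B, GABARAPL1 and SQSTM1. Of these 10 genes 9 had a row, among 17990 genes in all, and ATG4B is not analysed here. All 9 passed the minimum of 20 mean counts, as did 11916 genes of the whole table. The 6 libraries, 1 per group, came from untreated cells (0 h) and from cells given 10 nM DHT for 3, 6, 12, 24 and 48 h. All 6 groups had first spent 3 days without phenol red in 2.5% serum stripped with charcoal and dextran. They come from 1 cell line, and the untreated library is of 0 h, so that DHT and hours in culture cannot be told apart. Differences could not be tested across samples, as each group was a single library, and the intervals cover counting error alone.

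Autophagy is the route by which a cell wraps part of its cytoplasm in a double membrane, the autophagosome, and delivers it to the lysosome for breakdown. The ULK1 kinase complex starts the process, the BECN1-containing lipid kinase complex marks the membrane, and a conjugation system that includes ATG5 attaches proteins of the ATG8 family (the LC3 and GABARAP proteins) to it. Cargo receptors such as SQSTM1 bind these proteins, and the transcription factor TFEB drives many autophagy and lysosome genes. In prostate cancer cells ULK1, ULK2, ATG4B, ATG4D and TFEB have been described as genes activated by androgen, which is the background to looking at them in a DHT time course.

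Totals over the listed transcripts ran between 13179917 and 20587956 counts, so a count of 0 would allow up to 3 counts, or 0.146 to 0.228 counts per 1000000 (CPM); no core gene had fewer than 134 counts in any library. FKBP5, an androgen target, had 59.0 CPM at 0 h and 151.6, 747.9, 1588, 2286 and 2050 CPM at 3, 6, 12, 24 and 48 h. The summed level of 6 luminal markers (KLK3, KLK2, TMPRSS2, FOLH1, KRT8, KRT18) was 7118 to 21350 CPM, against at most 0.895 CPM for 3 basal and 0.152 CPM for 3 leukocyte markers. The fibroblast markers COL1A2 and DCN stayed at or below 0.0486 and 0.379 CPM, while COL1A1 had 31.2 to 64.3 CPM. In the 12 h library the genes of chromosome 4 had a median log2 change of -2.15 against 0 h and those of chromosome 15 one of -0.43, while the medians of the other chromosomes lay between -0.23 and 0.59; 0 core genes lie on either chromosome. In bulk RNA, fewer cells of a type and less RNA per cell cannot be told apart.

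Among the 9 genes only ATG5 passed a change of 2-fold against 0 h, at 6 h and at 48 h, on the scale log2(CPM + 1). Both calls were lost when a trend with GC content, shared by all genes and described further on, was removed, and GABARAPL1 at 48 h then passed instead. MAP1LC3B and GABARAPL1, whose proteins are attached to the membrane lipid, and the lipid kinase subunit BECN1 had their highest levels at 48 h, but stayed within 2-fold. As measured, the kinase ULK1 was level within 1.18 times between its lowest and highest library. With the GC trend removed its log2 values at 12 and 48 h were 0.476 and 0.535. The number of genes at least 2-fold higher was 0, 1, 0, 0 and 1 of 9 at 3, 6, 12, 24 and 48 h, where 0.747, 15.3, 11, 10.5 and 15% of the 11916 genes were. At least 2-fold lower were 0 of 9 at every time, where 0.864, 3.01, 7.99, 10.8 and 7.33% of all genes were. The core genes' share was therefore near or under the background at each time. The 12 h share lower over all genes, here and below, includes genes of chromosomes 4 and 15, low in that library. No core gene lies on either chromosome.

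The median change of the 9 genes was 0.13, 0.32, 0.24, 0.42 and 0.57 on the log2 scale at 3, 6, 12, 24 and 48 h, and that of all genes -0.09, 0.08, 0.03, -0.09 and -0.06. A value above 0 was seen in 7, 5, 8, 7 and 7 of the 9 genes, against 39.4, 54.4, 51.6, 45.7 and 47.0% of all genes. At 1.5-fold, 0, 2, 2, 2 and 4 genes were higher, where 2.52, 28.5, 24.4, 21.6 and 25.4% of all genes were. None was 1.5-fold lower at any time, where 8.13, 13.4, 17.4, 24.2 and 22% of all genes were. The 4 higher genes at 48 h were ULK2, ATG5, MAP1LC3B and GABARAPL1. Without the GC trend described further on, 0, 1, 2, 3 and 3 genes were 1.5-fold higher. The shares over all genes were then 3.36, 10.8, 10.9, 16.5 and 16.4%. The 3 at 48 h were MAP1LC3B, GABARAPL1 and SQSTM1, so ULK2 and ATG5 no longer passed. No core gene was then 1.5-fold lower, where 3.5, 7.71, 14.4, 16 and 14.6% of all genes were. All these comparisons share the 0 h library, so they are not independent of each other.

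**Figure D1:**
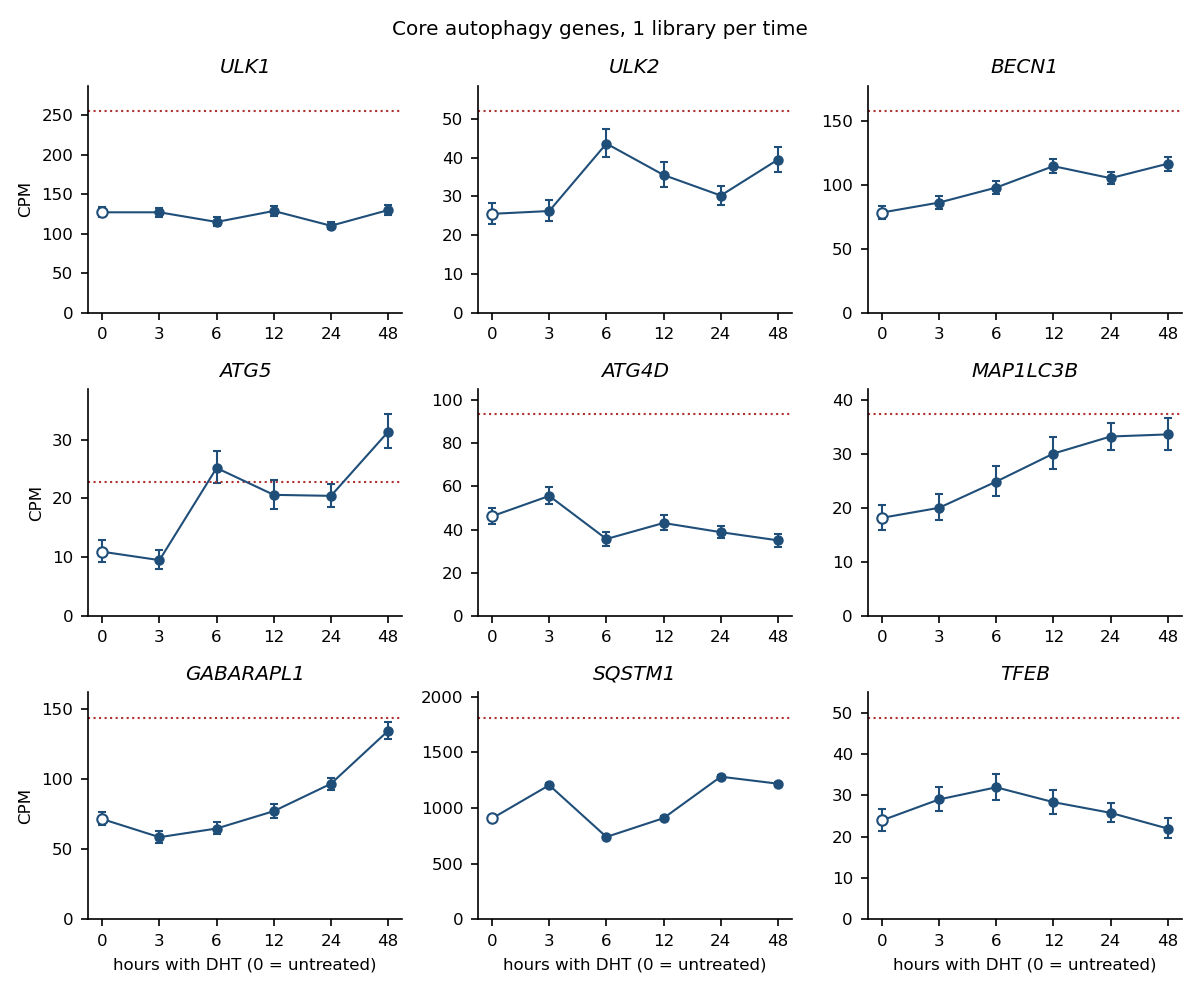
CPM (vertical axis) of 9 core autophagy genes against hours with DHT (horizontal axis, unevenly spaced times at equal steps), with exact Poisson 95% intervals of counting error; the open circle is the untreated 0 h library and the dotted line a doubling of it on the scale of CPM + 1. ATG5 crosses the line at 6 and 48 h, and the other 8 genes stay under it.

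Of the kinases that start autophagy, ULK1 had 126.9 CPM at 0 h and 126.9, 114.7, 128.6, 109.9 and 129.7 CPM at 3, 6, 12, 24 and 48 h. As measured, its levels at 3, 12 and 48 h lay within counting error of that at 0 h. Those at 6 and 24 h were slightly lower. The 24 h value was 0.866 times that at 0 h (95% interval 0.813 to 0.924). With the GC trend described further on removed, the log2 values at 3, 6, 12, 24 and 48 h were 0.064, 0.433, 0.476, 0.436 and 0.535. ULK2, the close relative of ULK1, had 25.5 CPM at 0 h and 26.2, 43.6, 35.5, 30.2 and 39.5 CPM at 3, 6, 12, 24 and 48 h. As measured, its level was highest at 6 h, which did not differ beyond counting error from 48 h, nor 48 h from 12 h. The ratio to 0 h was 1.71 (1.49 to 1.96) at 6 h and 1.55 (1.35 to 1.78) at 48 h. Without the GC trend, the log2 values at 6, 12 and 48 h were 0.478, 0.242 and 0.562, against 0.752, 0.463 and 0.611 as measured. The 48 h value was then the highest.

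BECN1, a subunit of the class III phosphatidylinositol 3-kinase complex that acts in autophagy, had 78.2 CPM at 0 h and 86.0, 97.8, 114.5, 105.1 and 116.4 CPM at 3, 6, 12, 24 and 48 h. Every DHT library was above the untreated one, and 12 and 48 h did not differ beyond counting error. The ratio to 0 h was 1.46 (1.35 to 1.58) at 12 h and 1.49 (1.38 to 1.61) at 48 h. Its change stayed within 2-fold throughout, with log2 values of 0.54 and 0.57 at these times. With the GC trend described further on removed, these log2 values were 0.302 and 0.49. At 6 h the log2 value was then 0.019, against 0.318 as measured.

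In the conjugation system, ATG5, which forms the conjugate with ATG12 that helps to attach ATG8 proteins to lipid, had 10.9 CPM at 0 h and 9.50, 25.2, 20.6, 20.5 and 31.4 CPM at 3, 6, 12, 24 and 48 h. The levels split into a low pair, 0 and 3 h, and higher levels at the other 4 times. At 6 h the ratio to 0 h was 2.31 (1.89 to 2.82) and at 48 h 2.87 (2.38 to 3.48); at 12 and 24 h it was 1.89 (1.54 to 2.32) and 1.87 (1.55 to 2.28), just inside the rule. With the GC trend removed the log2 values at 6 and 48 h were 0.12 and 0.48, against 1.14 and 1.44 as measured. The step between 3 and 6 h was 2.65 times (2.17 to 3.27). Of all genes, 11.9% had a log2 change at least as high as that of ATG5 at 6 h, and 7.89% at 48 h. ATG4D, a protease that processes ATG8 proteins, had 46.2 CPM at 0 h and 55.6, 35.6, 43.1, 38.8 and 35.0 CPM at 3, 6, 12, 24 and 48 h. Its level was highest at 3 h, at 1.20 times that of 0 h (1.08 to 1.34), and it was 0.758 times that of 0 h (0.673 to 0.853) at 48 h, a direction that flipped with the GC trend removed (log2 value 0.12).

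The genes differ in base makeup, which the changes are set against further on, so the start of the coding sequence of the gene with the lowest and of the gene with the highest GC content is shown, from GENCODE transcripts, with G and C in capitals. The first 120 coding bases held 40.8% GC in ATG5 (chromosome 6) and 78.3% in ATG4D (chromosome 19).
ATG5: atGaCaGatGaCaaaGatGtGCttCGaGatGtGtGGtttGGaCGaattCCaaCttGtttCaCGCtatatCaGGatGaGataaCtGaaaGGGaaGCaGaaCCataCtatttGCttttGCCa
ATG4D: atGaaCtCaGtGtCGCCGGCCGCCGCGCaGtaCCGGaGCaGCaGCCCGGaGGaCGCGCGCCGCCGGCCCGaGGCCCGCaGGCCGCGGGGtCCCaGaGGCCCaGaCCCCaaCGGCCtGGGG
The whole coding sequences held 39.0% GC in ATG5 and 64.8% in ATG4D, and the transcripts 38.8% and 64.8%.

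Among the ATG8 family, MAP1LC3B, whose protein LC3B is the common marker of autophagosomes, had 18.1 CPM at 0 h and 19.98, 24.8, 30.0, 33.2 and 33.6 CPM at 3, 6, 12, 24 and 48 h. The levels of 12 to 48 h were above those of 0 to 6 h, and those of 24 and 48 h did not differ beyond counting error. The ratio to 0 h was 1.83 (1.58 to 2.13) at 24 h and 1.85 (1.58 to 2.17) at 48 h. GABARAPL1, a family member of the GABARAP branch, had 71.4 CPM at 0 h and 58.5, 64.7, 77.1, 96.6 and 134.4 CPM at 3, 6, 12, 24 and 48 h. It was lowest at 3 h and highest at 48 h, where the ratio to 0 h was 1.88 (1.74 to 2.04); the step between 24 and 48 h was 1.39 times (1.31 to 1.48). Reads of GABARAPL1 and of its near copy GABARAPL3, and of MAP1LC3B and its near copy MAP1LC3B2, could be split between them, and how the authors counted such reads is not given in the sources used here, so these levels are uncertain.

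Per kilobase of transcript, GABARAP, not itself on the list, held 55.4% of the summed ATG8 family level at 48 h, against 68.3% at 0 h. GABARAPL1 held 17.1% at 48 h, against 9.70% at 0 h, and GABARAPL2 23.8% against 19.6%. MAP1LC3B held 3.10% at 48 h, against 1.79% at 0 h. The share of GABARAP was lower at 6, 12, 24 and 48 h than at 0 h.

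SQSTM1, or p62, the receptor that binds ubiquitinated cargo and is itself degraded by autophagy, was the most abundant core gene. It had 906.4 CPM at 0 h and 1206, 739.5, 908.9, 1282 and 1219 CPM at 3, 6, 12, 24 and 48 h. As measured, its level was higher at 3, 24 and 48 h, lowest at 6 h and equal to 0 h within counting error at 12 h. Without the GC trend described further on, its log2 values at 3, 6, 12, 24 and 48 h were 0.414, 0.064, 0.305, 0.964 and 0.87. The 12 h value, 0.004 as measured, was -0.053 with size factors by the median of ratios. Without chromosomes 4 and 15 in the totals it was -0.036. The ratio to 0 h was 1.33 (1.30 to 1.36) at 3 h, 0.816 (0.794 to 0.838) at 6 h and 1.41 (1.38 to 1.45) at 24 h. The 6 h level was 0.613 times that of 3 h (0.598 to 0.629). No other core gene had counts this high, with at least 9917 per library, so intervals this narrow hold for SQSTM1 alone and cover counting error only.

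TFEB, the transcription factor that drives the lysosome and autophagy gene network, had 23.9 CPM at 0 h and 28.98, 31.9, 28.3, 25.7 and 21.9 CPM at 3, 6, 12, 24 and 48 h. Its level was highest at 6 h, which did not differ beyond counting error from 3 h, nor 3 h from 12 h. As measured, the ratio to 0 h was 1.34 (1.15 to 1.55) at 6 h, and the 24 and 48 h intervals of the ratio both held 1. Without the GC trend described further on, its log2 values at 3, 6, 12, 24 and 48 h were 0.323, 0.947, 0.671, 0.713 and 0.375. Averaged over the libraries, levels per kilobase of transcript were 349 CPM for SQSTM1, 47.2 for BECN1, 42.8 for GABARAPL1, 23.1 for ULK1, 21.8 for ATG4D, 11.4 for TFEB, 9.90 for MAP1LC3B, 6.12 for ATG5 and 5.56 for ULK2.

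Core genes of lower GC content tended to have higher log2 changes at 6, 12, 24 and 48 h. GC content was 38.8% for ATG5, 46.1% for BECN1, 46.4% for ULK2, 48.7% for MAP1LC3B, 50.1% for GABARAPL1, 58.0% for SQSTM1, 63.2% for TFEB, 64.2% for ULK1 and 64.8% for ATG4D. Across the 9 genes Pearson's r of the log2 change with GC content was 0.56, -0.75, -0.86, -0.81 and -0.92 at 3, 6, 12, 24 and 48 h. Over 11140 genes with a GC value it was 0.23, -0.74, -0.43, -0.52 and -0.56, so the whole table shares this trend. Genes of the same library share its depth, so these coefficients are descriptions only.

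**Figure D2:**
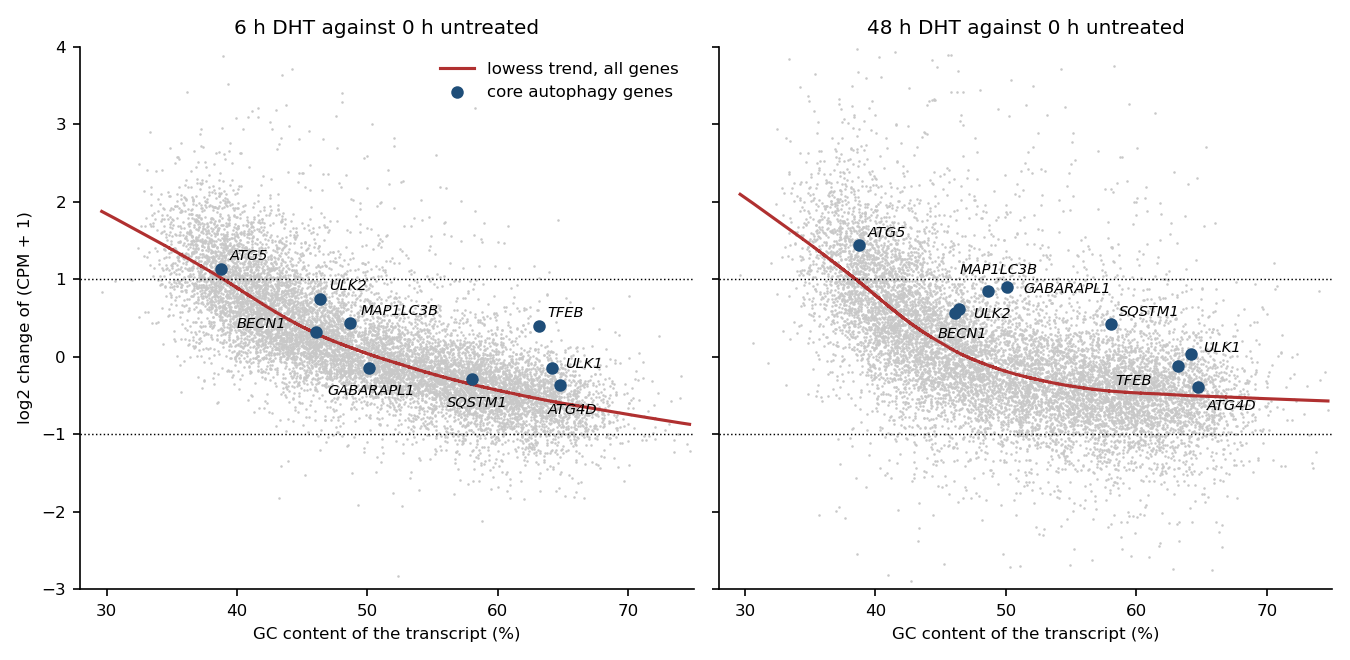
Change of (CPM + 1) against 0 h on the log2 scale (vertical axis) against transcript GC content (horizontal axis, %) at 6 h and 48 h with DHT; grey points are 11140 genes (1 at 6 h and 31 at 48 h lie beyond the axes), the red curve a lowess trend through them, blue points the 9 core autophagy genes and dotted lines 2-fold. ATG5, the gene with the lowest GC content of the 9, lies highest at both times and close to the curve at 6 h.

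At the GC content of ATG5 the trend over all genes stood at a log2 value of 1.02 at 6 h and 0.96 at 48 h, beside 1.14 and 1.44 for ATG5 itself. With the trend subtracted, the core genes at least 2-fold higher were then 0, 0, 0, 0 and 1 of 9 at 3, 6, 12, 24 and 48 h, where 0.943, 3.8, 3.96, 7.09 and 7.15% of genes were. The 1 was GABARAPL1 with a log2 value of 1.10. At least 2-fold lower were 0 of 9 at each time, where 0.431, 1.56, 7.44, 6.58 and 4.82% of genes were. MAP1LC3B had 0.92 and 0.97 at 24 and 48 h, SQSTM1 0.96 and 0.87, and TFEB 0.95 at 6 h. SQSTM1 at 6 h and TFEB at 48 h, below 0 as measured, had 0.06 and 0.38. The source of the trend was not tested. All core genes, at 12, 24 and 48 h, had values above 0 once it was subtracted. At 3 and 6 h all but GABARAPL1 did, which had -0.272 and -0.177. The median over all genes was then 0.014, -0.01, -0.02, 0.01 and -0.01 at 3, 6, 12, 24 and 48 h.

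**Figure D3:**
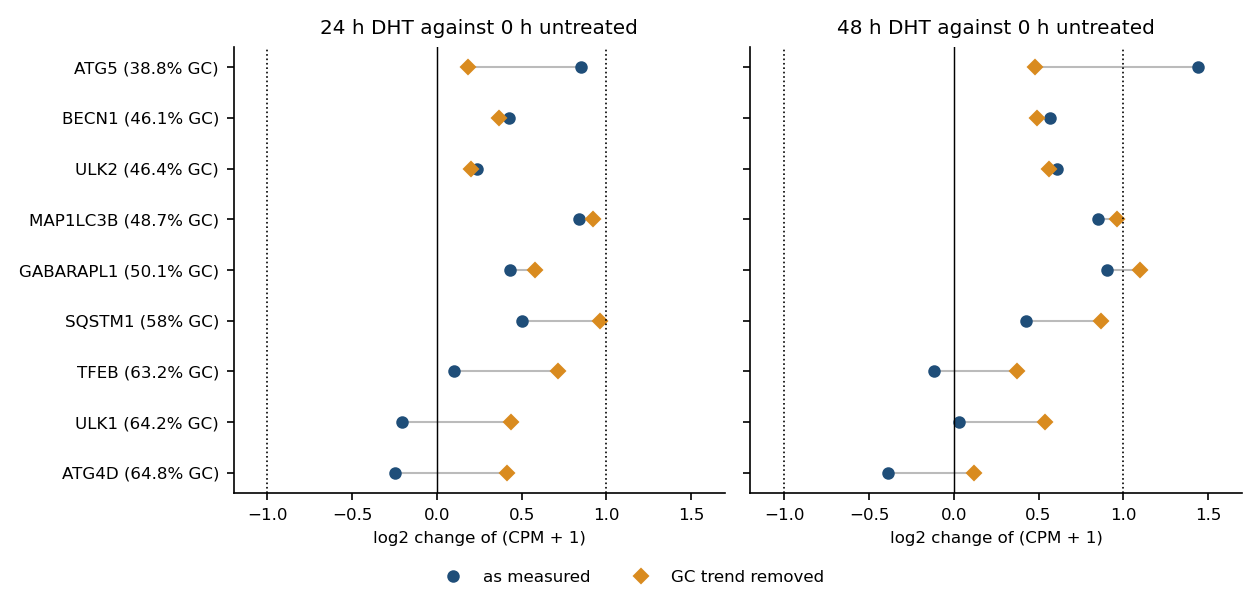
Log2 change of (CPM + 1) against 0 h (horizontal axis) of the 9 core autophagy genes, ordered by GC content, at 24 h and 48 h with DHT, as measured (blue circles) and with the GC trend removed (orange diamonds); dotted lines mark 2-fold. ATG5 moves inside the line at 48 h and GABARAPL1 just past it.

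The wider set of autophagy and lysosome genes had 74 names, of which 69 were measured, 3 were below the minimum (MAP1LC3C, FUNDC1, TFEC) and 2, RUBCN and NEU1, are not analysed here. At 3, 6, 12, 24 and 48 h, 0, 6, 6, 6 and 8 of the 69 were at least 2-fold higher (0.0, 8.70, 8.70, 8.70 and 11.6%) and 2, 1, 4, 3 and 1 at least 2-fold lower (2.90, 1.45, 5.80, 4.35 and 1.45%). The 2 lower at 3 h were RB1CC1 and BNIP3. Over all genes the share higher was 0.747, 15.3, 11, 10.5 and 15%, and the share of the set was below it at 6, 12, 24 and 48 h. The share lower over all genes was 0.864, 3.01, 7.99, 10.8 and 7.33%, and that of the set was above it at 3 h and below it at the other times. At 12 h the lower genes of the set included WDFY3 and HEXA, on chromosomes 4 and 15, which were low in that library. Its median change at 24 h was 0.09 and at 48 h 0.21, against -0.09 and -0.06 over all genes.

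At 24 h, 2 of 3 genes of the ULK1 complex were at least 2-fold higher. So were 3 of 10 of the membrane source and lipid transfer group, where 10.5% of all genes were. At least 2-fold lower were 0 and 1, where 10.8% of all genes were. Once the GC trend was removed, 1 of 3 and 1 of 8 were higher, where 7.09% of genes were. Lower were then 0 and 0, where 6.58% of genes were. RB1CC1, the scaffold of the ULK1 complex, had 17.2 CPM at 0 h and 6.24, 50.6, 35.9, 43.1 and 103.5 CPM at 3, 6, 12, 24 and 48 h and was 6.04 times its 0 h level at 48 h (5.25 to 6.97). With the GC trend removed its log2 change at 48 h was 1.40, against 2.53 as measured, and its calls at 3, 6, 12 and 24 h were lost (-0.99, 0.37, 0.10 and 0.53). ATG101, another subunit, was 2.09 times its 0 h level at 24 h (1.93 to 2.27), its only call as measured. Once the GC trend was removed it was past 2-fold at 12, 24 and 48 h (1.038, 1.565 and 1.259). ATG13, also of this complex, was counted under the symbol of a neighbouring gene, HARBI1, and had a log2 change of 0.56 at 24 h. WIPI1, which binds the lipid made by the BECN1 complex, was 4.57 times its 0 h level at 24 h (4.14 to 5.06) and TMEM41B, an endoplasmic reticulum lipid scramblase, 3.03 times (2.60 to 3.54). WIPI1 was also past 2-fold at 6, 12, 24 and 48 h once the GC trend was removed, while TMEM41B was past it at 48 h (1.17) and inside it at 6, 12 and 24 h (0.28, 0.93 and 0.98). VMP1, a partner scramblase with no GC value here, was 2.13 times its 0 h level at 24 h (1.98 to 2.29). ATG9B was 2-fold lower at 12 and 24 h and 2-fold higher at 48 h, with 6.22 CPM at 0 h, 1.76 at 12 h, 1.60 at 24 h and 14.8 at 48 h; it overlaps NOS3 on the other strand, and the use of strand is not given in the sources used here, so its level is uncertain.

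In the lipid kinase group 0 of 7 genes were past 2-fold at any time. Of all genes 0.747, 15.3, 11, 10.5 and 15% were higher at 3, 6, 12, 24 and 48 h. The shares lower were 0.864, 3.01, 7.99, 10.8 and 7.33%. PIK3R4, the regulatory subunit of the kinase, had a log2 change of 0.58 and NRBF2, another subunit, 0.52 at 24 h. In the conjugation group ATG12 and ATG4C were 2-fold higher at 6 h, ATG12 at 12 h and ATG4A, a processing protease, at 48 h, where its ratio was 2.22 (1.89 to 2.63). None of these calls held with the GC trend removed: the log2 values were then -0.06 at 6 h and 0.29 at 12 h for ATG12, -0.30 at 6 h for ATG4C and 0.69 at 48 h for ATG4A. ATG16L2, a relative of the ATG12 and ATG5 partner ATG16L1, was lower at 6, 12, 24 and 48 h and was 0.148 times its 0 h level at 24 h (0.102 to 0.210). Its calls at 6 and 48 h were lost with the GC trend removed (-0.49 and -0.85), and those at 12 and 24 h held (-1.44 and -1.66). Of the ATG8 family MAP1LC3A was 0.256 times its 0 h level at 24 h (0.119 to 0.515), with 0.583 CPM, a call lost with the GC trend removed (log2 value -0.51). GABARAPL2 had a log2 change of 0.37 at 24 h.

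The receptor TAX1BP1 was 2-fold higher at 6, 12, 24 and 48 h, with a ratio of 2.99 (2.78 to 3.21) at 24 h. Once the GC trend was removed it passed at none of these times, with log2 values of 0.43, 0.69, 0.93 and 0.85. RETREG1, a receptor for the endoplasmic reticulum, had a log2 change of -0.73 at 24 h, and of -1.19, past 2-fold, with the trend removed. BNIP3L, a receptor for mitochondria, was 2-fold higher at 48 h, a call lost with the trend removed (0.21, against 1.16 as measured). WDFY3, an adaptor on chromosome 4, and HEXA, a lysosomal hydrolase on chromosome 15, were 2-fold lower only at 12 h, the library that was low for these chromosomes. The transcription factor MITF had a log2 change of 0.62 at 24 h and ZKSCAN3, a repressor of autophagy genes, one of -0.45. The fusion genes STX17 and EPG5 had 0.65 and 0.34. Of 20 lysosome genes 0 were 2-fold higher at any time, where 0.747, 15.3, 11, 10.5 and 15% of all genes were. GAA and PSAP, both lysosomal, were at 0.513 (0.481 to 0.546) and 0.576 (0.566 to 0.586) times their 0 h levels at 24 h. Their log2 changes with the GC trend removed were -0.32 and -0.46, against -0.96 and -0.80 as measured.

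**Figure D4:**
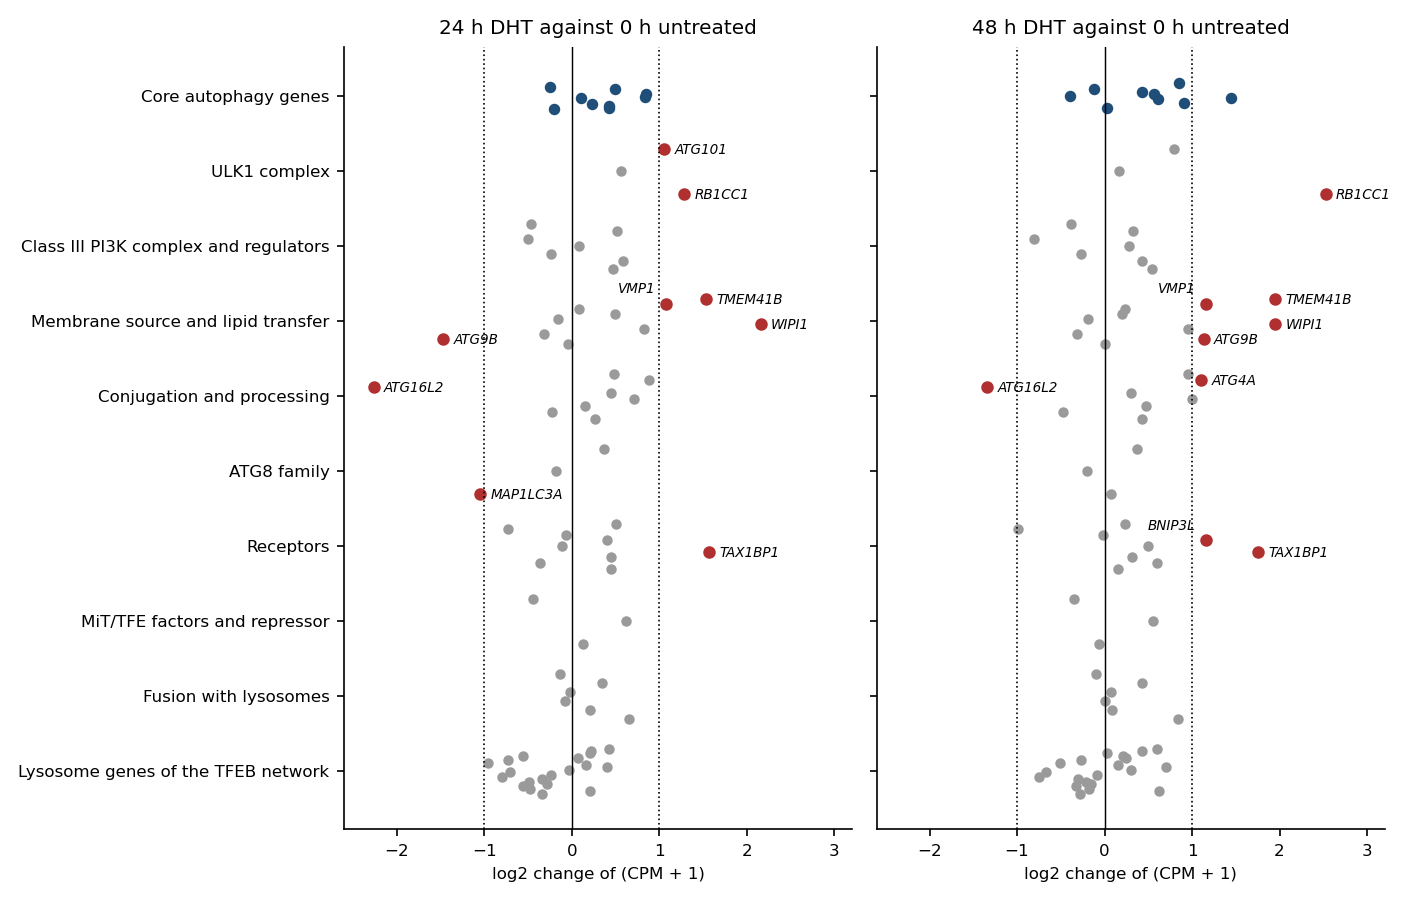
Log2 change of (CPM + 1) against 0 h (horizontal axis) at 24 h and 48 h with DHT for 69 genes of the wider set by group (grey; red and named at 2-fold or more) and for the 9 core genes (blue, top row); vertical position within a row only spreads the points. WIPI1, TMEM41B, RB1CC1, TAX1BP1 and VMP1 lie past the 2-fold line on the higher side at both times, and ATG16L2 on the lower side. ATG9B lies past it on the lower side at 24 h and on the higher side at 48 h. No lysosome gene lies past it at either time.

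Promoters of the core genes were searched for 5 motifs on both strands of 300 bases, 250 before and 50 after each RefSeq start on GRCh38.p14. Of 35116 promoters, CACGTG (the E-box) was in 7.26%, TCACGTGA (the CLEAR core bound by TFEB, which contains the E-box) in 0.98%, AGAACA (one arm of the androgen response element) in 14.8%, the full androgen response element, which contains AGAACA, in 0.00285% and TGACNNNGC (the core of the antioxidant response element) in 13.3%. The 14 promoters of 9 core genes, with ATG4B among them and no entry for ATG4D, held 1 match in all, TGACNNNGC in the promoter of MAP1LC3B, 46 bases before the start. The promoter, chr16:87392086-87392385 on the plus strand, is printed with the match in capitals.
MAP1LC3B: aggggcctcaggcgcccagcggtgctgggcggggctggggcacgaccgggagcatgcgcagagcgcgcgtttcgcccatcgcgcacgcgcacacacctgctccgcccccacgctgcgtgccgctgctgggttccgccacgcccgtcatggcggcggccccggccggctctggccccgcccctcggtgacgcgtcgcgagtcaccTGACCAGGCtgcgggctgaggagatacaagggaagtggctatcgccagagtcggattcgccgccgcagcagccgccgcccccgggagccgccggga
A missing match says only that these letters are not in this window.

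The genes with changes most like those of 3 core genes over 5 times, by the root-mean-square difference on the log2 scale, were AP5M1 (listed as C14orf108, 0.09), ASAH1 (0.09) and AGGF1 (0.10) for ATG5. For MAP1LC3B they were B4GALT1 (0.06), WDR37 (0.07) and TXNDC11 (0.08), and for SQSTM1 COPE (0.11), SIRT4 (0.13) and CYB561D2 (0.13). All these differences were taken on changes as measured, with the GC trend left in. At the GC content of ATG5 that trend stood at 1.02 at 6 h and 0.964 at 48 h, beside 1.14 and 1.44 for ATG5 itself. How much of the likeness is shared GC content was not tested.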

How the data were processed

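RNA was sequenced from 6 libraries of LNCaP cells, 1 per group, on the Illumina GAIIx, per the labels' protocols. The submitters' processing notes name hg19 as the build. How reads were aligned and counted, and whether strand was used, is not given in the sources used here. Per the file headers, the deposited values are a tag count per RefSeq transcript and library and an RPM column that the authors scaled to the reads of the library. Columns were matched to samples through the hours in their headers, and 0 stayed unmatched. Of 18051 lines 50 exact repeats were removed, and transcripts of 1 symbol were added.

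Counts were scaled to CPM over the listed transcripts, which held 86.94 to 89.53% of the deposited denominator. Changes are log2((CPM + 1) with DHT over (CPM + 1) at 0 h), which understates low genes; the rule was 2-fold, and genes averaging 20 counts or more entered. Intervals of levels are exact Poisson and those of ratios exact conditional binomial, at 95%; with no molecular identifiers named, both they and the floors hold counting error alone. GC content came from GENCODE v29 transcripts, and its trend from a lowess curve (span 0.3). The steps were tested on simulated counts. Python 3.11.15, numpy 2.4.6, pandas 2.3.3, scipy 1.17.1, statsmodels 0.14.6 and matplotlib 3.10.9 were used.

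The members and gene lists were chosen with earlier results of these data known. All core genes are named. From each group of the wider set the 2 measured genes with the largest absolute change at 24 h are named, with those needed to account for a count of 5 or fewer; genes of larger counts were named after their values were seen. For the 3 core genes with the largest absolute change at 24 h, the 3 most similar genes are named. A marker of the planned luminal list is not reported here.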

Additional observations from a re-analysis of the deposited data

How the results depend on the processing

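No paired analysis was possible because each group had 1 library, so no replicate could be left out or blocked. No called value of a core gene changed sign under any alternative. In the wider set ATG12 and ATG4C, called at 6 h, had log2 values of -0.06 and -0.30 with the GC trend removed. With the GC trend removed, 0 core genes were 2-fold higher at 6 h. Of the wider set's 66 genes with a GC value, 1, 2, 2 and 4 were then higher at 6, 12, 24 and 48 h. Lower were 1 and 0 at 3 and 6 h. Over all genes the shares higher at 6 to 48 h were 3.8, 3.96, 7.09 and 7.15%, and those lower at 3 and 6 h 0.431 and 1.56%. Removing the trend also moved the share of higher calls among all calls, over all genes, to 68.6, 70.9 and 34.7% at 3, 6 and 12 h. As measured it was 46.4, 83.6 and 58.0%. A pseudocount of 5 CPM left 0 core genes higher at 6 h. Of the wider set's 69 genes 3 were then higher at 6 h, where 9.5% of all genes were. Lower were 1, 0, 1 and 0 at 3, 6, 24 and 48 h, where 0.159, 1.27, 5.8 and 3.97% of all genes were. A pseudocount of 0.1 CPM gave 2 of the set lower at 48 h, where 9.12% of all genes were. With the 3 h library in place of 0 h, 1, 1 and 2 of 9 core genes were higher at 12, 24 and 48 h. The core median was 0.14, 0.20 and 0.43 at 6, 24 and 48 h, and that of all genes 0.121, -0.027 and 0.013. Of the wider set's 69 genes 14, 12, 10 and 14 were higher at 6 to 48 h, where 20.9, 17.0, 15.7 and 19.9% of all genes were. Lower were 0 of the set at 6 and 48 h, where 1.4 and 7.19% of all genes were. At 1.5-fold, 2, 2, 2 and 4 of 9 core genes were higher at 6 to 48 h. Of the wider set's 69 genes 15, 13, 11 and 17 were higher at these times, where 28.5, 24.4, 21.6 and 25.4% of all genes were. Lower were 5, 6, 8 and 5 of the set at 3, 6, 24 and 48 h, where 8.13, 13.4, 24.2 and 22% of all genes were. Size factors by the median of ratios shifted changes by -0.11 on the log2 scale at 6 h, and no core gene crossed 2-fold with them, with the deposited denominator, without chromosomes 4 and 15 in the totals or with repeated lines kept. Filters at 0 and at 200 mean counts kept all 9 core genes. A filter does not alter the value of a gene, so these settings could not move a core gene across 2-fold.

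The limits are 1 library per time, untreated cells at 0 h alone, an unknown treatment of reads shared by near copies, and a GC trend common to all genes. Counting intervals say nothing of the spread between cultures. ATG5, with 134 to 472 counts per library, is the least precisely counted core gene.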

Other observations

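BNIP3 and BNIP3L, receptors that direct mitochondria to autophagosomes, had their lowest measured levels at 3 h and their highest at 48 h. BNIP3 had 166.2 CPM at 0 h and 67.5, 137.3, 186.4, 153.5 and 234.7 CPM at 3, 6, 12, 24 and 48 h. BNIP3L had 138.2 CPM at 0 h and 82.0, 150.5, 176.8, 183.1 and 309.6 CPM at the same times. The shared low at 3 h did not hold for BNIP3L with the GC trend removed, when its log2 change was -0.45 at 3 h, -0.88 at 6 h and 0.21 at 48 h. At 3 h RB1CC1 had a log2 change of -1.33 and BNIP3 one of -1.29, and these were the only 2 of the 69 measured genes at least 2-fold lower there (2.90%), where 0.864% of all genes were. With the GC trend removed RB1CC1 had -0.99 and was no longer past 2-fold. BNIP3 and BNIP3L were described together after their values were seen.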
